A study of Mus musculus with 6 samples.

Results

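The 32 genes described here carry glucose into the cell, break it down to pyruvate and lactate, and set how much pyruvate enters the mitochondrion. They were taken by gene symbol from the 57180 genes of the deposited table, where they fill 33 rows because Aldoa has a second, nearly silent identifier. Both groups were sorted as natural killer (NK) cells, gated as CD3- NK1.1+, from fibrotic livers of male wild-type C57BL/6J mice aged 6 to 8 weeks, and they differed in surface CD36, a fatty acid transporter and scavenger receptor by which they were sorted. All mice had been injected with CCl4, a hepatotoxin (2.5 ml/kg of a 20% solution, 2 injections a week for 4 weeks), and livers were taken 48 h after the last injection. Each group, CD36+ NK and CD36- NK, had 3 libraries of bulk RNA-seq with 10292480 to 13787189 counts per library. Neither the labels nor the study's methods say whether the 3 libraries of a group came from separate mice, so p-values measure the spread between these libraries, and no untreated mice were compared. The markers go against the label for CD36+ NK in part. NK lineage markers were detected there but summed to 1372 to 1657 CPM (counts relative to library size). B cell markers (12160 to 13890 CPM), monocyte markers (7269 to 7573 CPM) and macrophage and Kupffer cell markers (2499 to 6157 CPM) summed to more. In CD36- NK the B cell markers (7388 to 9680 CPM) overlapped the NK lineage markers (6736 to 8732 CPM), and monocyte markers reached 7419 CPM. The group names below therefore stand for the sort.

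In NK cells glycolysis is best known for fuelling activation. Glucose enters through transporters of the Slc2a family, is trapped by hexokinases, is committed to breakdown by phosphofructokinase and is cleaved and oxidised to pyruvate. Pyruvate is either reduced by lactate dehydrogenase and exported with a proton, or handed to the pyruvate dehydrogenase complex, which pyruvate dehydrogenase kinases switch off by phosphorylation. Many steps have several isozymes encoded by separate genes, which differ in kinetics and in the tissues where they are used.

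Levels are given as CPM, a gene's count relative to the size of its library after scaling by edgeR's TMM factors, and differences as log2 fold changes of CD36+ NK over CD36- NK from edgeR's quasi-likelihood test with the p adjusted by Benjamini-Hochberg over the 14761 genes tested. Of the 32 members, 31 had enough counts for the test. A gene was called a differentially expressed gene (DEG) at an adjusted p below 0.05 with a change above 2-fold, which 5.96% of all tested genes met, and 2.98% as higher in CD36+ NK (440 of 880 DEGs, which with 1 library left out became 94 to 708 higher and 288 to 554 lower). Among the members 2 of 31 were DEGs, Eno3 and Slc16a3, both higher in CD36+ NK cells. With the adjusted p alone, which 10.5% of all genes passed (5.07% higher and 5.44% lower), 6 members passed: Eno3, Slc16a3, Hk2, Pfkfb4 and Pdk1 were higher and Pfkp was lower. The libraries of the groups did not overlap in 15 of the 31 members, 12 higher and 3 lower, against 32.7% of all genes. The median log2 fold change of the members was 0.13, against 0.01 for all genes tested, with 22 members above 0 and 9 below. The median size of the change, whatever its sign, was 0.22 in the members and 0.23 in all genes.

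**Figure D1:**
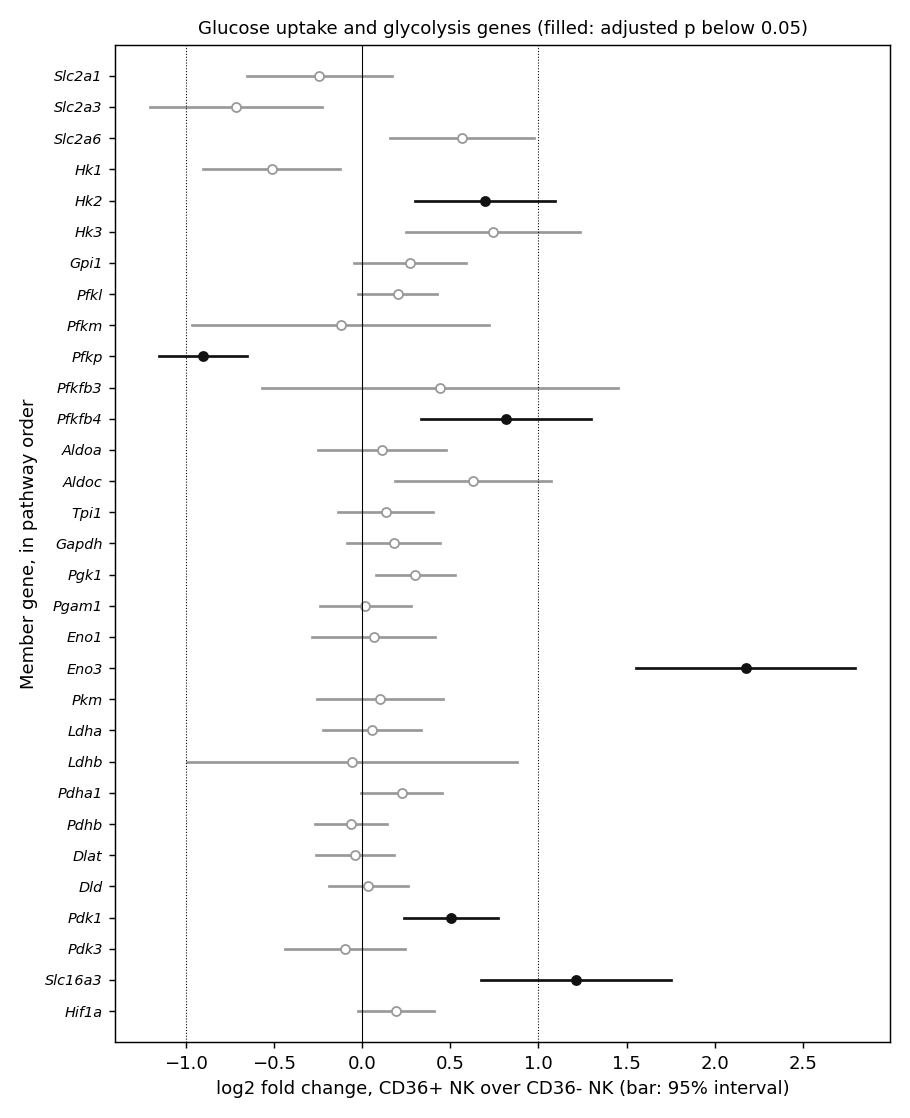
Log2 fold change of CD36+ NK over CD36- NK (x axis) for the 31 tested members in pathway order (y axis), with 95% intervals from edgeR as bars. Filled points passed an adjusted p of 0.05 and dotted lines mark a 2-fold change. Eno3 at 2.18 and Slc16a3 at 1.21 are the points to the right of the 2-fold line, and Pfkp at -0.90 is the filled point left of 0.

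Eno3 encodes the beta form of enolase, the enzyme that makes phosphoenolpyruvate, and is best known from skeletal muscle. Eno3 (ENSMUSG00000060600, chromosome 11, 70548028 to 70553339 in the table, which names no build) stood at 70.9, 127 and 116 CPM in CD36+ NK replicates 1 to 3 and at 19.8, 29.9 and 19.8 CPM in CD36- NK. Every CD36+ NK library was above every CD36- NK library, and the lowest CD36+ NK value was that of replicate 1. The log2 fold change was 2.18 (SE 0.26, adjusted p = 0.00484), a 4.52-fold difference. It remained a DEG when any 1 library was left out, with log2 fold changes from 2.01 to 2.40. Eno1, the alpha enolase that most cells use, stood at 176 ± 5.14 CPM in CD36+ NK and 168 ± 33.8 CPM in CD36- NK (SD, n = 3) with overlapping libraries (log2 fold change 0.06, SE 0.15, adjusted p = 0.835). The value for Eno1 is uncertain because reads of Eno1b, a near-identical copy that held 46.9% as many counts, may have been split between them.

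Slc16a3 encodes MCT4, the monocarboxylate transporter that exports lactate from highly glycolytic cells. Slc16a3 (ENSMUSG00000025161, chromosome 11, 120839306 to 120851694 in the table) stood at 50.9, 54.2 and 42.4 CPM in CD36+ NK and at 21.2, 27.7 and 14.6 CPM in CD36- NK. The groups did not overlap, and CD36- NK replicate 3 was the lowest library. The log2 fold change was 1.21 (SE 0.23, adjusted p = 0.0205), a 2.32-fold difference. The call was lost without CD36+ NK replicate 2 (adjusted p = 0.0782) or without CD36- NK replicate 1 (adjusted p = 0.0829), while the log2 fold change stayed between 1.00 and 1.45. Ldha and Ldhb, whose products interconvert pyruvate and lactate, did not separate the groups. Ldha stood at 221 ± 22.3 CPM in CD36+ NK and 213 ± 22.2 CPM in CD36- NK (log2 fold change 0.05, SE 0.12, adjusted p = 0.819), and Ldhb was near 4 CPM in both, at 3.88 ± 1.66 and 4.01 ± 1.38 CPM. The Ldhb level and share are uncertain, since an annotated pseudogene held 17.9% as many counts.

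Promoters are shown for the DEGs only and were searched for the core of the hypoxia response element, ACGTG or GCGTG. This motif is read by HIF-1, the transcription factor best known for driving glycolytic genes. Each sequence runs from 250 bases before the RefSeq transcript start to 50 after it, on the plus strand of GRCm38.p6, with the motif in capitals on whichever strand it was found. The Eno3 promoter lies at chr11:70656926-70657225, and its motif, read on the opposite strand, begins 130 bases before the start. The Slc16a3 promoter lies at chr11:120948817-120949116, with motifs that begin 27 and 14 bases before the start.
Eno3: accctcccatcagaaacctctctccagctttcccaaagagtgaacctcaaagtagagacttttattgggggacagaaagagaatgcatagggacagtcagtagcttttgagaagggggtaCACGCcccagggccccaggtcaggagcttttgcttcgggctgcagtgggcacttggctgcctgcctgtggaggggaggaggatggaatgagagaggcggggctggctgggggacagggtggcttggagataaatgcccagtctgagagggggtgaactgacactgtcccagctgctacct
Slc16a3: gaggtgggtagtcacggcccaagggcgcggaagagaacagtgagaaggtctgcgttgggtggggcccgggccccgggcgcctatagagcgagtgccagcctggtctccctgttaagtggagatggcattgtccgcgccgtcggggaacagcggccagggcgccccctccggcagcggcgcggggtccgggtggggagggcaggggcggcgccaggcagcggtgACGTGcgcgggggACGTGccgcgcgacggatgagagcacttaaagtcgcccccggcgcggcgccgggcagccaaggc
RefSeq gave 44 promoters for 31 of the 32 members, and 34 of these (77.3%) held the motif on either strand, against 43.8% of the 32851 mouse promoters in the same set. The motif was in a promoter of 26 of the 31 members, Pfkp and Ldha among them, so it does not set the DEGs apart. Member promoters also had more G and C, with a median of 61.2% against 52.7%. The E-box CACGTG, which contains ACGTG, was found in 4 member promoters (9.1%) and in 7.2% of all promoters. These matches describe the letters of the windows and not binding.

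Pfkp was the member that was lower in CD36+ NK cells past the adjusted p. Pfkp encodes the platelet form of phosphofructokinase, the enzyme of the committed step. Pfkp (ENSMUSG00000021196, chromosome 13, 6629804 to 6698813 in the table) stood at 131, 130 and 127 CPM in CD36+ NK and at 230, 222 and 275 CPM in CD36- NK. The CD36+ NK libraries lay within a few CPM of each other and far below the lowest CD36- NK library. The log2 fold change was -0.90 (SE 0.11, adjusted p = 0.00444), which is 1.87-fold lower and so short of the 2-fold limit of a DEG. Pfkp passed the adjusted p with any 1 library left out, at log2 fold changes from -0.96 to -0.81. Pfkl, the liver form, stood at 80.6, 75.0 and 71.2 CPM in CD36+ NK and at 70.1, 60.7 and 66.3 CPM in CD36- NK. These groups did not overlap but the difference missed the threshold (log2 fold change 0.20, SE 0.09, adjusted p = 0.236). Pfkm, the muscle form, was under 14 CPM in every library, and its groups overlapped (log2 fold change -0.12, SE 0.36, adjusted p = 0.875).

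**Figure D2:**
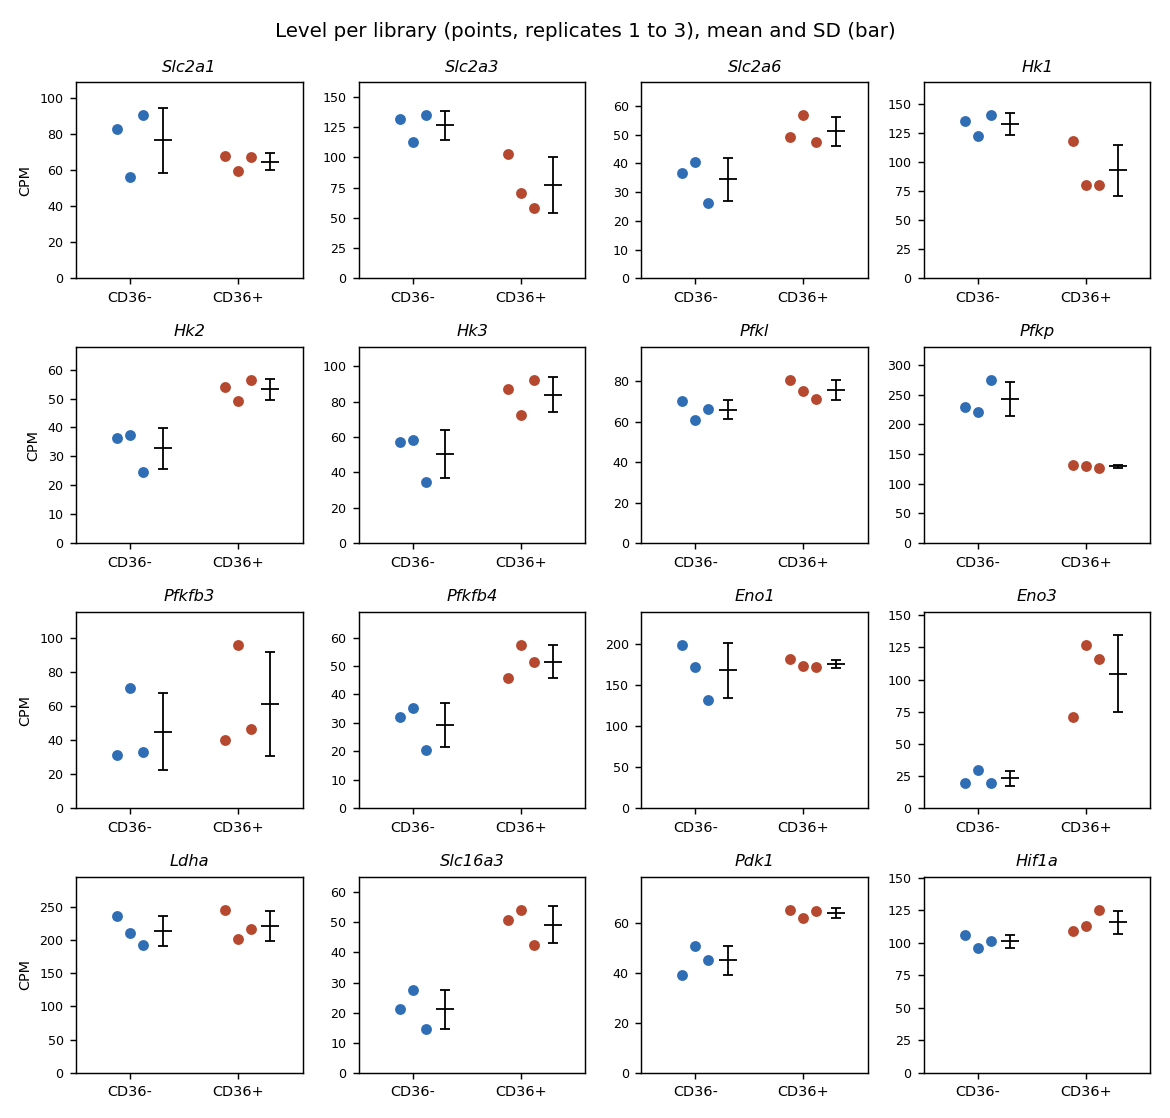
CPM (y axis, from 0) of 16 members in each library, with CD36- NK in blue and CD36+ NK in red. Points are replicates 1 to 3 from left to right and bars are the mean and SD. Eno3, Slc16a3, Hk2, Pfkfb4 and Pdk1 are higher in all CD36+ NK libraries, Pfkp is lower in all of them, and Eno1 and Ldha overlap.

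By edgeR's adjusted p 0 of the 3 glucose transporter genes passed, 2 were under 0.05 before adjustment, and by DESeq2 Slc2a3 (adjusted p = 0.0124) and Slc2a6 (adjusted p = 0.0349) passed. Slc2a1 encodes GLUT1, the basal transporter of most proliferating cells, and stood at 67.7, 59.2 and 67.0 CPM in CD36+ NK and at 82.5, 56.3 and 90.4 CPM in CD36- NK. The groups overlapped (log2 fold change -0.24, SE 0.18, adjusted p = 0.447). Slc2a3, the high-affinity GLUT3, stood at 103, 70.4 and 58.0 CPM against 131, 113 and 135 CPM, every CD36+ NK library being the lower. The difference missed the threshold (log2 fold change -0.72, SE 0.21, adjusted p = 0.0715) and passed it without CD36+ NK replicate 1 (log2 fold change -0.99, adjusted p = 0.0103). Slc2a6, GLUT6, a transporter of lysosomal membranes, stood at 49.1, 56.9 and 47.5 CPM in CD36+ NK and at 36.8, 40.6 and 26.2 CPM in CD36- NK. Its groups did not overlap, and its difference also missed the threshold (log2 fold change 0.57, SE 0.17, adjusted p = 0.0834).

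Of the 3 hexokinase genes, Hk2 passed the adjusted p. Hk2, the inducible form that binds mitochondria, stood at 53.8, 49.3 and 56.4 CPM in CD36+ NK and at 36.4, 37.4 and 24.6 CPM in CD36- NK. All CD36+ NK libraries were above all CD36- NK libraries, and the difference passed the test (log2 fold change 0.70, SE 0.17, adjusted p = 0.0435). Hk3, a form best known from myeloid cells, stood at 87.0, 72.7 and 92.3 CPM against 57.4, 58.4 and 34.5 CPM. It too did not overlap, but the adjusted p was 0.0666 (log2 fold change 0.74, SE 0.21). Hk1, the form of most tissues, stood at 118, 80.4 and 80.2 CPM in CD36+ NK and at 135, 123 and 140 CPM in CD36- NK. Every CD36+ NK library was lower, with CD36+ NK replicate 1 close to the CD36- NK range (log2 fold change -0.51, SE 0.17, adjusted p = 0.0977), and without that library the difference passed (log2 fold change -0.74, adjusted p = 0.0106).

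Pfkfb3 and Pfkfb4 encode enzymes that make and break fructose-2,6-bisphosphate, a potent activator of phosphofructokinase. Pfkfb4 stood at 45.7, 57.5 and 51.5 CPM in CD36+ NK and at 32.1, 35.1 and 20.5 CPM in CD36- NK. The groups did not overlap, and the difference passed the test (log2 fold change 0.82, SE 0.20, adjusted p = 0.0490). Pfkfb3 stood at 40.1, 96.2 and 46.7 CPM in CD36+ NK and at 30.98, 71.0 and 33.0 CPM in CD36- NK. In both groups replicate 2 stood far above the others, and the groups overlapped (log2 fold change 0.44, SE 0.43, adjusted p = 0.580). Fbp1, which runs the phosphofructokinase step backwards in gluconeogenesis, had 3, 2 and 0 counts in CD36+ NK and 0 in each CD36- NK library, too few to be tested.

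The 6 steps from glucose-6-phosphate to pyruvate with a single member gene, Gpi1, Tpi1, Gapdh, Pgk1, Pgam1 and Pkm, differed little. Their log2 fold changes ran from 0.02 (Pgam1) to 0.30 (Pgk1), and their 95% intervals lay between -0.26 and 0.59, that is between 0.836-fold and 1.503-fold. By edgeR's adjusted p 0 of the 6 passed, 1 was under 0.05 before adjustment, and by DESeq2 0 passed. Pgk1, the first ATP-forming enzyme, was the one whose groups did not overlap, with 179, 174 and 181 CPM in CD36+ NK and 156, 147 and 130 CPM in CD36- NK (adjusted p = 0.0927). Pkm, pyruvate kinase, had the most CPM of the members, with 643, 525 and 515 in CD36+ NK and 620, 505 and 445 in CD36- NK. Gpi1, the isomerase after hexokinase, followed at 429 ± 48.03 CPM against 355 ± 48.4 CPM. Pgam1 and Gpi1 carry the same limit, since their annotated pseudogenes held 9.68% and 5.76% as many counts. Gapdh, often used as a reference transcript, stood at 136 ± 6.35 and 120 ± 15.7 CPM and Tpi1 at 104 ± 5.27 and 94.6 ± 12.9 CPM (SD, n = 3). The sum of the 6 genes was 1661, 1429 and 1533 CPM in CD36+ NK and 1584, 1301 and 1222 CPM in CD36- NK, so the groups overlapped.

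The aldolases cleave fructose-1,6-bisphosphate. Aldoa, the ubiquitous form, stood at 318 ± 44.8 CPM in CD36+ NK and 294 ± 48.3 CPM in CD36- NK, with overlap (log2 fold change 0.11, SE 0.15, adjusted p = 0.704). Its other identifier was under 1 CPM in every library and was not tested. Aldoc, the brain form, was low in both groups, at 5.70, 6.92 and 6.32 CPM against 3.92, 4.51 and 3.81 CPM. The Aldoc groups did not overlap, and the difference missed the threshold (log2 fold change 0.63, SE 0.19, adjusted p = 0.0784).

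At the entry to the mitochondrion, Pdk1 moved and the complex it inhibits did not pass the test. Pdk1, a pyruvate dehydrogenase kinase, stood at 65.3, 61.8 and 64.7 CPM in CD36+ NK and at 39.2, 50.9 and 45.1 CPM in CD36- NK. The CD36+ NK libraries were close to each other and all above CD36- NK (log2 fold change 0.50, SE 0.11, adjusted p = 0.0361), a 1.42-fold difference. Pdk3, its isozyme, overlapped at 24.2 ± 3.82 and 25.9 ± 1.82 CPM (log2 fold change -0.10, SE 0.15, adjusted p = 0.735). Of the complex itself, Pdha1 (E1 alpha) stood at 124, 143 and 150 CPM against 116, 119 and 122 CPM, with no overlap and an adjusted p of 0.197. Pdhb (E1 beta), Dlat (E2) and Dld (E3) had overlapping groups and log2 fold changes of -0.06, -0.04 and 0.04. Hk2, Pfkfb4 and Pdk1 are the least secure of the members that passed, since each kept an adjusted p under 0.05 only when CD36- NK replicate 2 was the library left out, and the highest adjusted p with another library left out was 0.139 for Hk2, 0.150 for Pfkfb4 and 0.116 for Pdk1. With the replicate number as a block the adjusted p was 0.0828 for Hk2, 0.0658 for Pfkfb4 and 0.0697 for Pdk1.

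Hif1a encodes the oxygen-regulated subunit of HIF-1, which is controlled largely through protein stability. Hif1a transcripts stood at 109, 113 and 126 CPM in CD36+ NK and at 106, 96.2 and 101 CPM in CD36- NK. The groups did not overlap, but the difference was small and missed the threshold (log2 fold change 0.19, SE 0.09, adjusted p = 0.235).

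**Figure D3:**
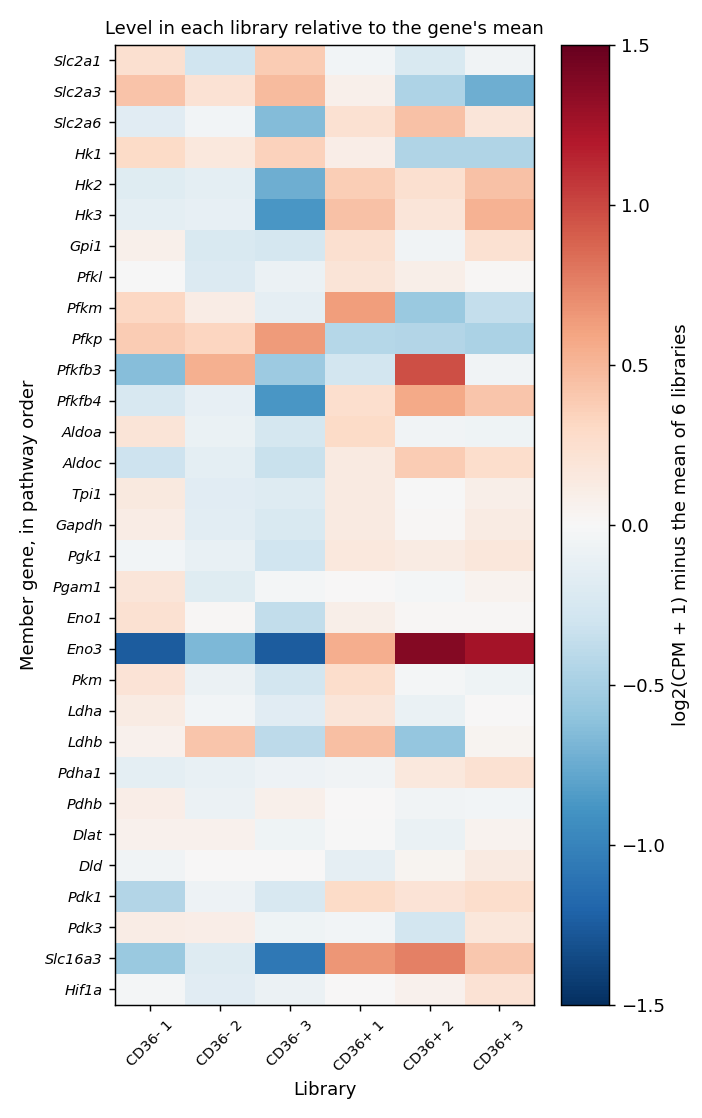
Log2(CPM + 1) of each tested member (y axis, pathway order) in each library (x axis) minus the mean of the 6 libraries, in colour from blue (below the mean) to red (above it). The Eno3 row runs from blue in CD36- NK to red in CD36+ NK, Pfkp runs the other way, and Pfkfb3 is reddest in replicate 2 of both groups.

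Because isozymes replace each other at a step, each gene's share of its family was computed in each library from FPKM (fragment counts divided by gene length and library size), a scale that allows genes of different length to be compared. Of 14 shares tested, 9 did not overlap between the groups, in 5 of 8 families, and each of these had an exact permutation p of 0.1, the smallest that 3 against 3 libraries can give (two-sided, 20 arrangements), or 0.156 after Benjamini-Hochberg adjustment over the shares. This test therefore could not reach 0.05 for a share. Shares within a family add up to the whole, so they are not separate results. In level, the groups did not overlap in 32.7% of all tested genes, and no such figure was computed for shares of other families. Eno3 made up 49.4%, 64.7% and 62.7% of enolase FPKM in CD36+ NK and 19.8%, 30.2% and 27.2% in CD36- NK, so that it was the larger part of the pair in CD36+ NK replicates 2 and 3 and the smaller in the other libraries on this scale. With the copy Eno1b counted among the enolases the difference in the mean Eno3 share was 27 percentage points in place of 33.1. From counts, without division by length, it was 24.6 percentage points. On counts Eno1 exceeded Eno3 in every CD36+ NK library (2043, 2359 and 2074 against 797, 1728 and 1394). Which gene was the larger part there thus rests on the division by length.

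Pfkp held 59.4% ± 3.49 of phosphofructokinase FPKM in CD36- NK and 41.7% ± 2.81 in CD36+ NK, and Pfkl held 32.7% ± 1.95 and 49.1% ± 1.35 (SD, n = 3). Pfkl thus headed this family in every CD36+ NK library and Pfkp in every CD36- NK library. Among hexokinases Hk1 held 45.8% ± 8.20 in CD36- NK and 25.8% ± 4.27 in CD36+ NK, while Hk3 held 34.2% ± 5.91 and 47.4% ± 2.95. Hk2 held 20% ± 2.30 and 26.8% ± 1.78. Among the 3 glucose transporters Slc2a6 held 21.7% ± 6.48 in CD36- NK and 35.4% ± 4.33 in CD36+ NK, Slc2a3 held 35.7% ± 0.685 and 23.97% ± 5.22, and Slc2a1 overlapped at 42.5% ± 6.36 and 40.6% ± 3.99. Pdk1 held 31.8% ± 3.30 of the kinase pair in CD36- NK and 41.7% ± 3.31 in CD36+ NK. The aldolases and lactate dehydrogenases were held by a single gene in both groups, with Aldoa above 97% and Ldha above 93% in every library, and the Pfkfb shares overlapped.

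**Figure D4:**
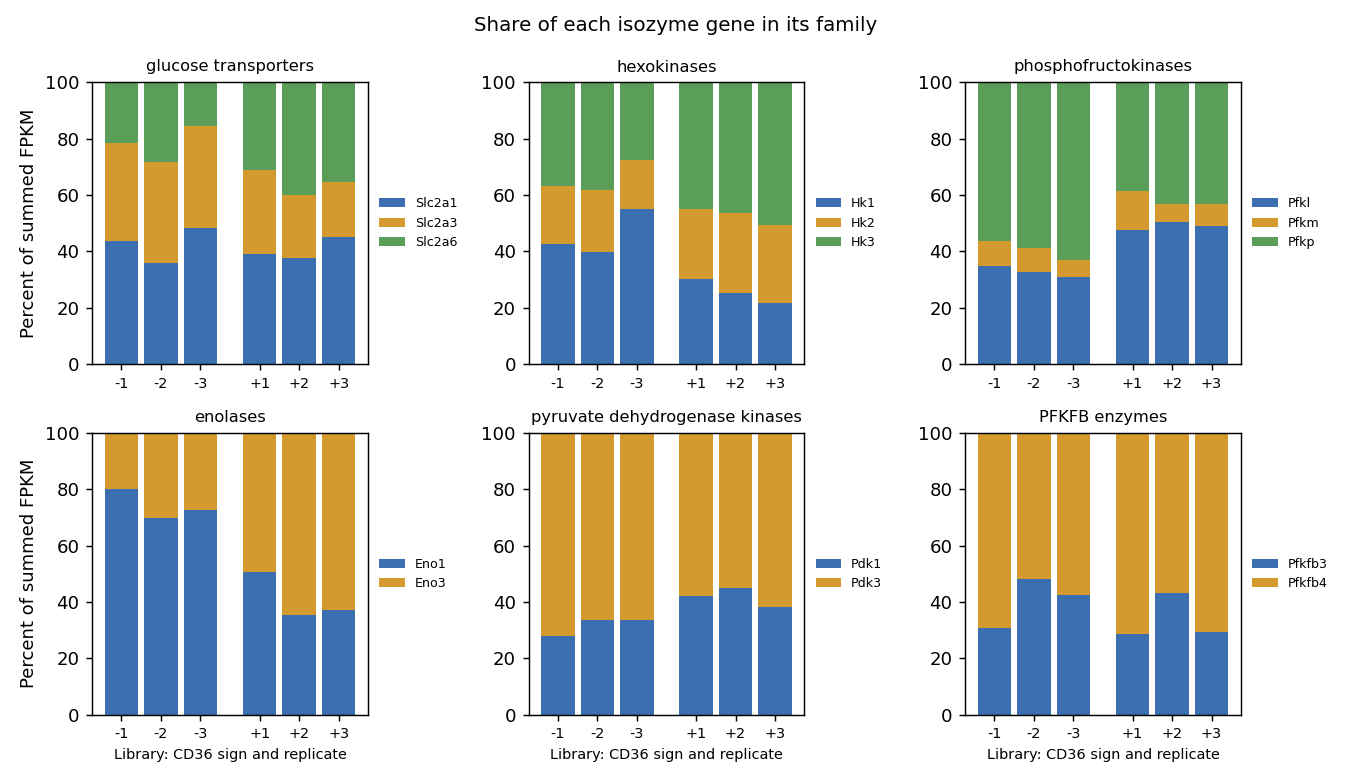
Percent of the summed FPKM of a family (y axis) held by each of its member genes in each library (x axis, sign of CD36 and replicate), for 6 families. Of the enolase bars Eno3 holds between 19.8% and 30.2% where CD36 is negative and between 49.4% and 64.7% where it is positive, and Pfkl holds more than Pfkp in each CD36+ NK bar and less in each CD36- NK bar.

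The deposited FPKM rest on gene lengths that exceed the whole locus for 10.2% of the 7439 best-counted genes, so levels were also set against the length of all annotated exons. On CPM per kilobase of exon, Pkm (112 ± 14.3 in CD36+ NK and 105 ± 17.9 in CD36- NK) and Aldoa (109 ± 15.4 and 101 ± 16.6) headed the members in both groups and did not differ from each other beyond their SD. Eno3, at 60.2 ± 17.1 in CD36+ NK and 13.3 ± 3.35 in CD36- NK, stood in the 7th place of 31 and in the 19th place, respectively. Slc16a3, at 9.25 ± 1.15 and 3.98 ± 1.23, stood in the 24th and in the 28th. On this scale Eno3 was also the larger part of the enolase pair in CD36+ NK replicate 1, at 54.7%, and its mean share was 63.9% in CD36+ NK against 30% in CD36- NK.

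Libraries of a group also differed among themselves. Of the 31 members, 18 had their lowest CD36- NK value in replicate 3 and 16 had their highest CD36+ NK value in replicate 1. The coefficient of variation of a member over the 3 libraries ran from 1.71% (Pfkp) to 52.6% (Pfkm) in CD36+ NK, with a median of 9.67%, and from 2.15% (Dld) to 50.1% (Pfkfb3) in CD36- NK, with a median of 13.1%. All members together summed to 3605 to 3925 CPM against 3220 to 3793 CPM, which overlapped.

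The sorted gene and the cell type markers moved with these differences. Cd36 stood at 110, 263 and 238 CPM in libraries titled CD36+ and at 14.3, 31.7 and 17.1 CPM in those titled CD36-, so each library matched its title. All 14 NK lineage markers were lower in CD36+ NK, 13 as DEGs, with sums of 1372 to 1657 against 6736 to 8732 CPM. All 10 tested macrophage and Kupffer cell markers were above CD36- NK without overlap, 4 as DEGs, with sums of 2499 to 6157 against 395 to 1511 CPM. B cell markers (1 DEG of 9, higher) summed to 12160 to 13890 against 7388 to 9680 CPM, above the NK lineage sums in CD36+ NK and overlapping their range in CD36- NK. Erythroid markers (5 DEGs of 8, higher) summed to 349.7 to 796 against 76.4 to 171 CPM. Hepatocyte markers (1 of 1 tested, higher) summed to 282 to 794 against 64.3 to 190 CPM. The other 7 of the 8 hepatocyte markers had too few counts to be tested. Stellate cell markers (1 of 2 tested, higher, Lrat at 0 throughout) summed to 3.46 to 6.73 against 1.37 to 2.31 CPM, with 6 of 8 untested. Monocyte markers (2 DEGs higher and 1 lower of 9), T cell markers (2 of 8 higher) and dendritic cell markers (2 of 8 higher) had sums that overlapped between the groups, 7269 to 7573 against 3629 to 7419, 32.7 to 338 against 54.5 to 58.2, and 83.3 to 108 against 50.5 to 86.2 CPM. Neutrophil markers overlapped too, at 935 to 5613 against 1943 to 4687 CPM, with 0 of 10 called by edgeR, 1 at an unadjusted p under 0.05 and 1 called by DESeq2. Sinusoidal endothelial markers summed to 34.0 to 91.6 against 3.52 to 18.4 CPM, with 0 of 2 tested called by edgeR, 1 at an unadjusted p under 0.05 and 1 called by DESeq2. The other 4 of the 6 sinusoidal endothelial markers were not tested. The part of these cells in the differences of Eno3, Slc16a3, Pfkp and the other members was not tested, and in bulk RNA fewer cells of a type and less RNA per cell cannot be told apart.

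Beyond the members, 51 other genes of glucose transport, glycolysis and pyruvate use were read. Of these 28 were tested and 1 was a DEG, against 5.96% of all tested genes. That gene was Slc16a7, which encodes MCT2, a monocarboxylate transporter of high affinity, at 10.2, 15.01 and 17.3 CPM in CD36+ NK and 8.07, 7.16 and 5.37 CPM in CD36- NK (log2 fold change 1.04, SE 0.25, adjusted p = 0.0424). The median log2 fold change of this list was 0.09. Of the genes not tested 7 had no count in any library, among them Hkdc1 and Slc2a12, and 9 had at most 3 counts in all, among them the liver transporter Slc2a2 and the muscle and fat transporter Slc2a4.

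All 11 genes of the pentose phosphate pathway, the branch that makes NADPH and ribose from glucose-6-phosphate, were tested. Of these 1 passed the adjusted p, against 10.5% of all tested genes. H6pd, its enzyme in the endoplasmic reticulum, passed the adjusted p alone and was lower, with 39.5, 42.2 and 40.5 CPM in CD36+ NK and 51.2, 58.7 and 54.9 CPM in CD36- NK (log2 fold change -0.43, SE 0.09, adjusted p = 0.0317). The groups did not overlap for H6pd. Of the 11 genes, 9 had log2 fold changes above 0 and 2 below, with a median of 0.08.

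Of 28 regulators of HIF-1 and its targets outside glycolysis, 26 were tested and 3 were DEGs, 2 higher and 1 lower, against 5.96% of all tested genes. P4ha1, a collagen prolyl hydroxylase, stood at 47.8, 67.0 and 75.7 CPM in CD36+ NK and 29.4, 34.8 and 26.7 CPM in CD36- NK (log2 fold change 1.07, SE 0.19, adjusted p = 0.0167). Plod2, a collagen lysyl hydroxylase, was lower, with 3.47, 2.80 and 3.08 CPM against 11.4, 12.02 and 19.7 CPM (log2 fold change -2.20, SE 0.27, adjusted p = 0.00471). Ddit4, an inhibitor of mTOR signalling, passed the adjusted p alone and was higher (log2 fold change 0.51, SE 0.11, adjusted p = 0.0342). The called genes did not share a direction, and the median log2 fold change of the list was 0.04.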

How the data were processed

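RNA was sequenced from 3 CD36+ NK and 3 CD36- NK samples (400 ng of total RNA each). The authors filtered reads with Seqtk, mapped them with HISAT2 (version 2.0.4 in the submitters' processing notes) and deposited unnormalized counts per gene. The authors also deposited FPKM values, which equal the count divided by a gene length and the library total and were used for isozyme shares, not for tests. The submitters' notes name the rat assembly mRatBN7.2, although the identifiers are mouse Ensembl genes. The table names no build, and 1445 of 51933 genes had the coordinates of GRCm38, so its coordinates are printed as given, while promoters are those of RefSeq on GRCm38.p6. The 2 lines of the table that were broken were rejoined.

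Library names of the samples titled CD36+ read as CD36 negative, with a double hyphen where those titled CD36- have a single one. Titles were followed, since groups come from them, and the Cd36 levels in the report match the titles. Genes were kept by filterByExpr (minimum count 10), which left 14761, scaled by TMM and compared with the quasi-likelihood test of edgeR 4.0.16 in R 4.3.3, without a block. Genes with adjusted p below 0.05 and a change above 2-fold were called. SE is the log2 fold change over the square root of F. The common biological coefficient of variation was 20.3%. Shares were compared with two-sided exact permutation tests (scipy 1.17.1). Replicates differed by more than sampling noise (chi-square per degree of freedom 14.8 to 29.2), so none was merged. The edgeR step was tested on simulated counts. Fbp1 had too few counts to be tested.

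The members, the other lists and the alternatives were chosen with earlier results of these data known. All members are named. Of the other pathway lists, the called genes are named, at most 3 of lowest p in each direction, except 1 that is not reported here, and H6pd, Ddit4 and the untested genes were named after their values were seen. Alternatives were upper-quartile and RLE scaling, DESeq2 1.42.0, other filters, the replicate number or the form of the library name as a block, each library left out, adjusted p alone, and, for shares, counts, exon length (GENCODE M21) and Eno1b. The last 2, and the counts of members past the adjusted p alone, were chosen after seeing the data.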

Additional observations from a re-analysis of the deposited data

How the results depend on the processing

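Of 403 log2 fold changes of single members under 13 alternatives, 356 kept their direction and side of the threshold, 25 lost the threshold, 7 gained it and 15, in 10 genes, changed sign. Eno3 was a DEG and Pfkp passed the adjusted p in every alternative, and Slc16a3 was a DEG in all but the 2 that left out CD36+ NK replicate 2 or CD36- NK replicate 1. With 1 library left out, DEGs ran from 417 (94 higher and 323 lower, without CD36- NK replicate 1) to 1160 (708 higher and 452 lower, without CD36- NK replicate 2), called members from 1 to 2 and members past the adjusted p from 2 to 6. The adjusted p alone gave 1552 genes and 6 members. Members past the adjusted p were 10 by DESeq2, which added Slc2a3, Slc2a6, Hk1 and Hk3, and 3 (Eno3, Pfkp and Slc16a3) without a filter. The cause of these changes was not tested.

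The replicate number as a block left 560 DEGs (221 higher and 339 lower), the same 2 called members and 3 members past the adjusted p, ending the passes of Hk2 (adjusted p = 0.0828), Pfkfb4 (0.0658) and Pdk1 (0.0697). The form of the library name as a block gave 912 DEGs and 5 members past the adjusted p, without Hk2 (0.0534) and Pfkfb4 (0.0668) and with Slc2a3 (0.0385). Libraries of the same title number correlated at 0.31, 0.05 and -0.08 in their deviations from the group means. Pairs of different title numbers correlated at -0.25 to 0.25. For CD36- NK the titles and the library names number the samples differently, so the pairing is uncertain. By library name, CD36+ NK replicate 1 shares a number with CD36- NK replicate 2 (r = -0.25) and CD36+ NK replicate 2 with CD36- NK replicate 3 (r = 0.12), and the replicate 1 libraries share a form of name.

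Sign changes came with single libraries left out, in members that did not pass the test: Aldoa (-0.021 to 0.240), Pgam1 (-0.063 to 0.109), Eno1 (-0.087 to 0.195), Pkm (-0.021 to 0.231), Ldha (-0.038 to 0.126), Ldhb (-0.41 to 0.23), Pfkm (-0.65 to 0.12), Pfkfb3 (-0.049 to 0.931), Pdk3 (-0.215 to 0.014) and Dld (-0.024 to 0.094). The differences in shares of Slc2a1 (-5.36 to 0.940 percentage points, and 1.91 from counts), Pfkm (-0.963 to 2.81) and Ldha (-0.454 to 1.08) also crossed 0.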
